A study of Mus musculus with 20 samples.

Results

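Microglia are the resident macrophages of the spinal cord. After an injury they divide, take up debris and release chemokines, and the balance of these activities shifts over days. A cell prepares DNA replication with the MCM helicase and nucleotide enzymes, and then enters mitosis under the control of cyclin B, its kinase Cdk1 and the spindle proteins.

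The change in gene expression between 72 h and 1 week after full transection (FT) of the spinal cord was examined here, in 6 of the 20 samples of the study. These were the 3 FT samples collected at 72 h and the 3 collected at 1 week, chosen by their labels. All 6 came from adult heterozygous CX3CR1+/eGFP male mice on a C57BL/6 background, aged 12 weeks at surgery and cut completely at thoracic level 9. Cells with strong eGFP were sorted from the 1 cm of cord around the lesion, and their polyadenylated RNA was sequenced. The other 14 samples were 3 from non-injured (NI) mice, 3 at 2 weeks after FT, and 3, 2 and 3 at 72 h, 1 week and 2 weeks after lateral hemisection (HS), from mice of the same line. Several mice were used for a sample. The reporter also marks monocytes from the blood, so that the sort could hold both cell types.

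Levels are given in CPM, the reads of a gene scaled by the authors to the effective size of each library. Between 3872918 and 12460162 reads per sample lay on the 16810 genes at 72 h, and between 11847499 and 14190235 at 1 week. The cells carried microglial markers at both times. *P2ry12*, *Tmem119*, *Cx3cr1*, *Siglech*, *Sall1*, *Gpr34* and *Olfml3* were detected in all 6 samples, and the reporter's own locus *Cx3cr1* had 1499 to 1859 CPM at 72 h and 1158 to 2644 CPM at 1 week. One library stood apart. The root mean square log2 difference between FT 1 week replicate 1 and the other 1 week samples was 0.756 and 0.768, whereas those 2 samples differed from each other by 0.425. FT 72 h replicate 1 had the highest sum of monocyte markers (1688 CPM against 753 and 779 CPM), and FT 72 h replicate 2 was the shallowest library. Results that rest on 1 of these libraries are given with and without it.

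Between 72 h and 1 week, 579 genes changed by at least 2-fold with an adjusted p-value under 0.05 (limma, Benjamini-Hochberg adjustment over 16810 genes), which is 3.44% of the genes tested. Most of them fell. Expression was lower at 1 week for 440 genes (2.62% of all genes) and higher for 139 (0.827%), and the median change of all genes was 0.03 on the log2 scale. The number of rises was 75 without FT 72 h replicate 2. The falls were also larger. A decrease of at least 4-fold was found for 133 genes and of at least 8-fold for 45, whereas 8 genes rose at least 4-fold. At 72 h, 9 of the genes that rose had 3 or fewer reads in every sample, and no fold is given for them. The 3 samples of each time did not overlap for 435 of the 440 genes that fell and for 135 of the 139 that rose, against 10.4% and 9.19% of all genes. The p-values rest on the spread within the 7 groups of all 20 samples, part of which may be technical. With only the 6 FT samples in the fit, 361 genes passed.

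The genes that fell most were those of cell division. *Top2a* encodes the topoisomerase that untangles chromosomes before mitosis (chromosome 11 of GRCm38, 98992943 to 99024189). It had 206, 206 and 172 CPM at 72 h and 7.63, 9.83 and 9.54 CPM at 1 week. Each sample at 1 week lay far below the lowest at 72 h and close to the NI samples (6.81 to 9.12 CPM). The log2 change was -4.37 (standard error 0.22, adjusted p = 3.58e-11, limma), the smallest adjusted p of all genes together with that of *Mki67*. *Mki67*, which encodes the proliferation antigen Ki67 (chromosome 7, 135689784 to 135716361), went from 141, 126 and 123 CPM to 7.93, 9.83 and 7.57 CPM, a log2 change of -3.87 (standard error 0.19, adjusted p = 3.58e-11). The groups were again fully separate. *Ccnb1*, which encodes cyclin B1, the partner of Cdk1 at entry into mitosis, had 92.6, 103 and 74.8 CPM at 72 h and 2.52, 3.79 and 4.42 CPM at 1 week. Its log2 change was -4.49 (standard error 0.31, adjusted p = 4.08e-09), so that 1 week had the lower level in every sample and the mean fell 25.2-fold.

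**Figure D1:**
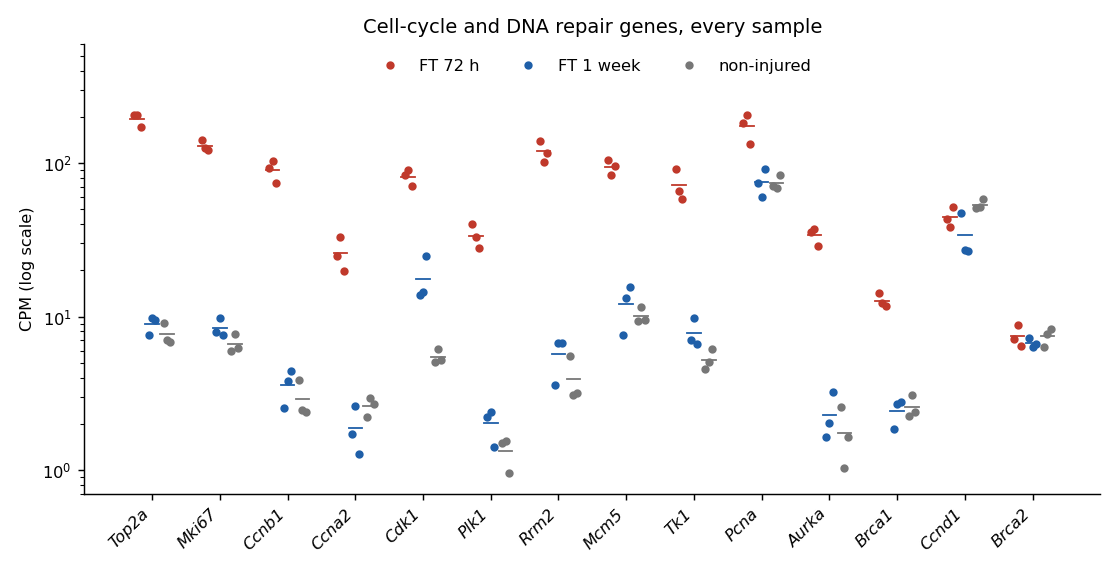
Levels of 14 genes in every sample of FT 72 h (red), FT 1 week (blue) and NI (grey), in CPM on a log axis; each point is a sample and each bar the mean of 3 samples. For 12 of the 14 genes all samples at 1 week lie below all samples at 72 h, whereas *Ccnd1* and *Brca2* overlap.

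Among the 33 cyclins, cell-cycle kinases and their partners, 26 fell and 0 rose, and the median log2 change was -2.82 against 0.03 for all genes. All 33 had a negative value, and 30 had samples that did not overlap. *Cdk1* went from 81.9 ± 9.43 to 17.7 ± 6.19 CPM (SD, n = 3 each), *Ccna2*, encoding cyclin A2, from 26 ± 6.80 to 1.87 ± 0.699 CPM, and *Plk1*, encoding the polo-like kinase of mitosis, from 33.8 ± 6.17 to 2.01 ± 0.522 CPM. Of the 7 members that did not pass, 6 encode the cyclins D and the kinases of the G1 phase and its exit, and the other was *Mybl2* (-0.85). *Ccnd1*, which encodes cyclin D1, had 43.6, 38.3 and 51.7 CPM at 72 h and 47.4, 27.3 and 26.7 CPM at 1 week, with overlapping groups (log2 change -0.43, 95% interval -0.89 to 0.03). *Ccnd3*, *Cdk2*, *Cdk4* and *Cdk6* did not pass either, with log2 values from -0.79 to -0.13, and *Ccnd2* was at the 2-fold limit (-0.99, adjusted p = 0.0364). It passed without FT 72 h replicate 3 (-1.25), FT 1 week replicate 1 (-1.10) or FT 1 week replicate 3 (-1.10).

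The kinetochore and spindle genes, which attach and move the chromosomes, had the highest proportion of decreases of the 4 proliferation lists. Of 36 genes, 33 fell and 0 rose, with a median log2 change of -2.80. *Kif23* and *Kif20a*, which encode motor proteins of cytokinesis, went from 35.6 ± 5.85 to 2.07 ± 1.49 CPM and from 46.1 ± 2.59 to 3.11 ± 1.13 CPM. *Cenpf*, encoding a kinetochore protein, went from 60.6 ± 7.73 to 8.25 ± 0.793 CPM, and *Prc1*, encoding a protein that bundles microtubules of the midzone, from 79.1 ± 8.25 to 6.23 ± 0.611 CPM. The largest decrease of all was that of *Fam64a*, from 43.4, 26.9 and 41.1 CPM to 0.445, 1.16 and 1.66 CPM (log2 change -4.62, standard error 0.39, adjusted p = 5.46e-08). Other genes among the 15 largest falls were *Nek2* and *Pbk*, which encode mitotic kinases, *Cep55*, encoding a protein of abscission, *Cdca3*, *Cdkn3* and *2810417H13Rik*, all with log2 changes between -4.34 and -3.73.

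Genes of DNA replication fell as well, with smaller changes. Of 40 genes, 28 fell and 0 rose (median -1.33). *Rrm2* encodes the regulated subunit of ribonucleotide reductase, which makes deoxynucleotides (chromosome 12, 24708241 to 24714146). It had 139.8, 101 and 117 CPM at 72 h and 3.56, 6.73 and 6.70 CPM at 1 week, with a log2 change of -4.32 (standard error 0.32, adjusted p = 7.1e-09). The helicase subunit gene *Mcm5* went from 105, 83.8 and 95.4 CPM to 7.63, 13.2 and 15.5 CPM (log2 change -2.97, adjusted p = 1.16e-07). *Tk1*, encoding thymidine kinase, had log2 change -3.12, whereas *Pcna*, encoding the sliding clamp that also serves repair, fell by 1.20 on the log2 scale, from 175 ± 38.2 to 75.7 ± 15.6 CPM. The groups did not overlap for any of these 4 genes.

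Homologous recombination and Fanconi genes, which repair broken or crosslinked DNA, were lower too. Of 22 genes, 15 fell and 0 rose (median -1.21), all 22 had a negative value, and 19 had samples that did not overlap. *Brca1* had 14.2, 12.3 and 11.7 CPM at 72 h and 1.85, 2.71 and 2.76 CPM at 1 week (log2 change -2.18, standard error 0.26, adjusted p = 8.62e-06). *Brca2*, in contrast, had 7.43 ± 1.21 and 6.74 ± 0.471 CPM with overlapping samples (log2 change -0.12, 95% interval -0.62 to 0.38). Without FT 72 h replicate 1 the count of the list was 10. Among 24 p53 targets and cell-cycle inhibitors, 1 fell and 0 rose, where 2.62% of all genes fell. That gene was *Cdkn2d*, encoding an inhibitor of the G1 kinases, which went from 46.8 ± 10.3 to 14.3 ± 0.661 CPM (log2 change -1.66, adjusted p = 5.52e-05). *Cdkn1a*, encoding the inhibitor p21, had 103, 70.7 and 87.5 CPM at 72 h and 81.0, 34.5 and 33 CPM at 1 week, where only replicate 1 reached the range at 72 h.

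These 4 lists hold 131 different genes, of which 102 fell and 0 rose, where 2.62% of all genes fell. For 116 of them all samples at 1 week lay below all samples at 72 h, against 10.4% of all genes. The count of genes that fell was between 93 and 106 under every alternative tried. The 102 genes were 23.2% of all genes that fell, and the lists held 29 of the 45 that fell at least 8-fold. At 1 week the mean level of the 102 genes was 0.451 to 3.23 times the NI mean (median 1.13 times), and 96 of them were within 2-fold of NI. *Cdk1* was the farthest above, with 17.7 CPM at 1 week against 5.47 CPM in NI. A lower level in a bulk sample can come from fewer dividing cells or from less RNA per cell, and these cannot be told apart here.

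Families outside the lists, picked after their values were seen, also fell in part. Among all genes 2.62% fell, and the median log2 change was 0.03. Of 11 alpha and beta tubulin genes 6 fell and 0 rose (median -1.31), *Tubb4b* going from 138, 101 and 112 CPM to 24.8, 17.3 and 15.3 CPM. Of 8 condensin genes, which compact chromosomes, 6 fell and 0 rose (median -1.51), and *Smc2* went from 99.5 ± 16 to 19.5 ± 6.24 CPM. Of 7 HMGB and HMGN genes, whose proteins bind chromatin, 4 fell, and of 30 histone genes 4 fell with a median of -0.20. *Stmn1*, encoding stathmin, a protein that destabilizes microtubules, had 525, 657 and 479 CPM at 72 h and 71.4, 62.5 and 98.0 CPM at 1 week (log2 change -2.85, adjusted p = 9.88e-07). *Uhrf1*, which maintains DNA methylation on new strands, and *Ezh2*, the histone methyltransferase of the Polycomb complex, had log2 changes of -2.97 and -1.53. The samples of both times were separate for all 5 of these genes. Reads of the tubulins may be shared between close copies.

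The promoters of cell-cycle genes that fell are shown because genes of mitosis are known to carry CCAAT boxes, the binding sequence of the factor NF-Y, near their start. The sequences are the 150 bases before the RefSeq transcript start on GRCm38.p6, read 5′ to 3′ on the strand of the gene, and capitals mark each CCAAT on either strand (CCAAT or ATTGG) and each TTTGAA on either strand (TTTGAA or TTCAAA), the element named CHR. *Ccnb1* lies at chr13:100786487-100786636 (minus strand), *Ccnb2* at chr9:70421555-70421704 (minus), *Cdc20* at chr4:118437344-118437493 (minus), *Aurka* at chr2:172370571-172370720 (minus) and *Rrm2* at chr12:24708104-24708253 (plus). *Cxcl13*, at chr5:95956789-95956938 (plus), is the gene with the largest rise and stands beside them.
Ccnb1: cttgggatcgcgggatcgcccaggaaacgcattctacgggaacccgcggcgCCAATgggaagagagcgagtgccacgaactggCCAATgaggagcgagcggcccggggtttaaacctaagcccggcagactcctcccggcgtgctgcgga
Ccnb2: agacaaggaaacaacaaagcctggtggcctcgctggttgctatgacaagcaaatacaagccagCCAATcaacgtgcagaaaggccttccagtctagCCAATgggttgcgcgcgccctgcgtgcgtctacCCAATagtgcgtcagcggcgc
Cdc20: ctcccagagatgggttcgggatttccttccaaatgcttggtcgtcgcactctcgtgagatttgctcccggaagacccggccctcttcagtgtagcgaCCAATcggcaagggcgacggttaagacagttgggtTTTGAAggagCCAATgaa
Aurka: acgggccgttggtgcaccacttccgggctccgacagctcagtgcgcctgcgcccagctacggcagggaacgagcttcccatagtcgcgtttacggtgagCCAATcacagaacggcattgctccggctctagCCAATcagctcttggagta
Rrm2: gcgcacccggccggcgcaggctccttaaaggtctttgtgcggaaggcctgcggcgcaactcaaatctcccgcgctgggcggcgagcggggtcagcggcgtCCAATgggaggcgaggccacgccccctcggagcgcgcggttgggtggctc
Cxcl13: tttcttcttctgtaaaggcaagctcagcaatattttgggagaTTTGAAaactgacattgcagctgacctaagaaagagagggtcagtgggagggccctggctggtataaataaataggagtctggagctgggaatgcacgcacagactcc

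*Ccnb2* held 3 CCAAT boxes in this window, and *Ccnb1*, *Cdc20* and *Aurka* held 2 each. *Rrm2* held 1, and *Cxcl13* held none. *Cdc20* also held 1 TTTGAA, as did *Cxcl13*. Over all 32851 windows of 250 bases in the table, 33.8% held at least 1 CCAAT, 10.1% held at least 2, and 16% held at least 1 TTTGAA. Those windows are longer than the 150 bases shown and include several starts for some genes. The cell-cycle genes shown were also picked rather than drawn by a rule. The counts above therefore cannot be compared with these shares. A share among the 102 genes is not given, since only 75.5% of them could be matched to a window by symbol. *Ccnb2* had 101, 39.1 and 81.7 CPM at 72 h and 3.78, 4.95 and 3.55 CPM at 1 week. *Cdc20*, which encodes the activator of the anaphase-promoting complex, went from 14.5 ± 3.86 to 1.02 ± 0.206 CPM, and *Aurka*, encoding a centrosome kinase, from 33.9 ± 4.57 to 2.29 ± 0.837 CPM. In all 3 genes the samples of the times were fully separate.

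The genes that rose were fewer and included secreted immune factors. The largest rise was that of *Cxcl13*, which encodes a chemokine that attracts B cells (chromosome 5, 95956951 to 95961068). It had 2.62, 2.34 and 0.890 CPM at 72 h and 18.3, 16.6 and 30.04 CPM at 1 week (log2 change 3.21, standard error 0.32, adjusted p = 4.01e-07). *C3*, the central component of complement (chromosome 17, 57203970 to 57228136), went from 26.7, 12 and 16.8 CPM to 88.8, 113 and 107 CPM (log2 change 2.51, standard error 0.21, adjusted p = 4.01e-08). *Ccl5*, which encodes a chemokine for T cells and monocytes, went from 24, 34.8 and 11.5 CPM to 71.4, 76.1 and 106 CPM (log2 change 1.94, standard error 0.26, adjusted p = 3.79e-05). In all 3 genes every sample at 1 week exceeded every sample at 72 h, and no sample left out ended a call.

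Among 21 CC and CXC chemokines, 3 rose and 0 fell, with a median log2 change of 0.06. Besides *Cxcl13* and *Ccl5* this was *Cxcl9*, a chemokine induced by interferon gamma, which went from 1.39 ± 0.0641 to 9.26 ± 2.59 CPM (log2 change 2.34, adjusted p = 5.21e-06). *Ccl2* and *Ccl3*, which recruit monocytes, had 370.2 ± 47.0 and 628 ± 223 CPM at 72 h and 302 ± 9.85 and 734 ± 144 CPM at 1 week, with log2 values of -0.29 (95% interval -1.31 to 0.74) and 0.26 (-0.59 to 1.11). Of 17 complement genes 1 rose, *C3*, and 2 fell, where 0.827% of all genes rose and 2.62% fell. *C5ar1*, which encodes the receptor for the fragment C5a, went from 572, 465 and 470 CPM to 161, 287 and 288 CPM (log2 change -1.07, adjusted p = 0.00163), and *C1ra*, a protease gene of the first component, from 6.29 ± 0.184 to 2.54 ± 0.361 CPM (log2 change -1.17). *C1qa*, encoding a chain of the recognition protein, had 1516 ± 157 and 1588 ± 526 CPM. The call for *C5ar1* was lost without FT 1 week replicate 1 (-0.80) and without FT 72 h replicate 1 (-0.98).

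**Figure D2:**
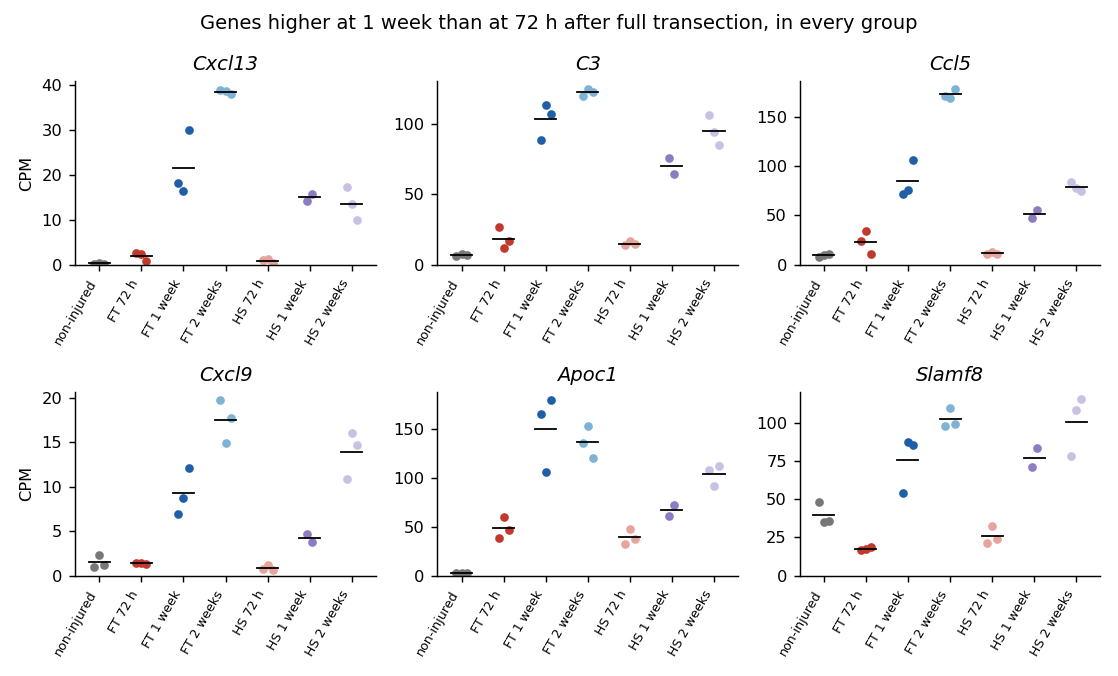
Levels in CPM (linear axis from 0) of 6 genes higher at 1 week than at 72 h after FT, in each of the 20 samples; points are samples and bars are group means. Levels at 72 h after FT are below those at 1 week in all 6 panels, and at 2 weeks *Cxcl13* had 38.6 CPM and *Ccl5* 173 CPM on average.

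*Slamf8*, which encodes a receptor of myeloid cells, rose from 17, 17.2 and 18.4 CPM to 53.8, 87.3 and 85.0 CPM (log2 change 2.04, adjusted p = 6.15e-07). Its NI level lay between the times (34.9 to 47.8 CPM). The other large rises had 3 kinds of starting point. *Cxcl13*, *C3*, *Ccl5* and *Apoc1* had at most 10.9 CPM in every NI sample and went further from NI at 1 week. *Slc39a4*, encoding a zinc importer, was at 10.6, 4.97 and 8.01 CPM at 72 h, near the NI range of 9.69 to 13.2 CPM, and at 23.7, 35.8 and 42.6 CPM at 1 week. *Usp35*, a deubiquitinase gene, *Whrn* and *Tmem150a* were below all NI samples at 72 h. *Usp35* had 29.3, 24.8 and 51.4 CPM at 72 h, 105, 129 and 68.2 CPM at 1 week and 70.8 to 126 CPM in NI. *Rxrg*, encoding a retinoid X receptor, went from 3.38 ± 0.745 to 11.9 ± 3.08 CPM. *Dtx3*, *4931431C16Rik*, *1700094D03Rik* and *Erdr1* complete the 15 largest rises, with log2 changes from 1.44 to 1.96, and *Erdr1* lies among repeated sequence, so that its reads may be shared. *4931431C16Rik* was no longer called without any 1 of 5 samples (adjusted p = 0.053 to 0.0886), nor was *Dtx3* without FT 72 h replicate 2 (0.84) or FT 1 week replicate 1 (1.29, adjusted p = 0.0582), and *Tmem150a* had 0.94 without FT 72 h replicate 2.

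Genes of cholesterol efflux included a pair of the named rises. Of 13 genes 2 rose and 0 fell, 11 had positive values, and the median was 0.57, where 0.827% of all genes rose. The genes that rose encode small apolipoproteins, but another of that family, *Apoc2*, had 192, 136 and 115 CPM at 72 h and 106, 66.2 and 103 CPM at 1 week (-0.68, adjusted p = 0.143), with all samples at 1 week below those at 72 h. *Apoc1* had 38.3, 60.2 and 47.1 CPM at 72 h, 165, 105 and 179 CPM at 1 week and 2.21 to 2.45 CPM in NI (log2 change 1.61, standard error 0.21, adjusted p = 2.03e-05). *Apoc4*, beside it on chromosome 7 (19678083 to 19681479), went from 7.70 ± 1.81 to 22.3 ± 5.09 CPM (log2 change 1.48, adjusted p = 0.00264). Both were separate in every sample. *Apoe*, the neighbouring and far larger transcript pool, had 7974, 1689 and 6338 CPM at 72 h and 11411, 17034 and 4468 CPM at 1 week. Its replicates spread so widely that the difference could not be resolved (log2 change 1.12, 95% interval -0.50 to 2.73). The transporter genes *Abca1* and *Abcg1* had log2 values of 0.60 and 0.57, with adjusted p-values of 0.0659 and 0.113. Without FT 1 week replicate 1, *Abcg1* had 0.83 (adjusted p = 0.00585).

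Markers of infiltrating monocytes were also lower at 1 week. Among 16 markers of monocytes and infiltrating macrophages, 5 fell and 0 rose, where 2.62% of all genes fell. Their median was -1.31, and 15 had a negative value. *Ccr2*, the receptor through which monocytes leave the blood for tissue (chromosome 9, 124101950 to 124113557), had 166, 68.1 and 57.0 CPM at 72 h and 7.93, 28.1 and 29.6 CPM at 1 week (log2 change -2.17, standard error 0.45, adjusted p = 0.00452). The sample with the highest value, FT 72 h replicate 1, had over 2 times that of the others, and every sample at 1 week lay below. *Fn1*, encoding fibronectin, *Emilin2*, *Ahnak* and *Ly6c2* were the other 4, with log2 changes from -1.82 to -1.28. The summed level of the 16 markers was 1688, 753 and 779 CPM at 72 h and 375, 489 and 502 CPM at 1 week, against 171 to 179 CPM in NI. After HS, over the same interval, 0 of the 16 fell and 1 rose, with a median of -0.54. There, 4.07% of all genes fell and 1.95% rose. For the difference between the injuries, 4 of the 16 had an unadjusted p under 0.05 (limma), against 3.93% of all genes. None passed the adjustment. Without FT 72 h replicate 1 the log2 change of *Ccr2* was -1.70 (adjusted p = 0.0429) and 2 of the 16 remained called, and without FT 1 week replicate 1 it was -1.57. *Ly6c2* did not pass without any 1 of the 5 samples other than FT 1 week replicate 3 (adjusted p = 0.054 to 0.114), and its reads may be shared with *Ly6c1*. *Fn1* (-0.94) and *Ahnak* (-0.77) were lost without FT 72 h replicate 1, and *Ahnak* also without FT 1 week replicate 2 (-1.07, adjusted p = 0.0878).

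*Arg1*, which encodes arginase 1, an enzyme of repair macrophages, fell as well (chromosome 10, 24915221 to 24927484). It had 87.1, 24.2 and 17 CPM at 72 h and 5.78, 2.48 and 2.29 CPM at 1 week (log2 change -3.17, standard error 0.61, adjusted p = 0.00212). At 1 week it was highest in replicate 1, where the sum of the monocyte markers was lowest (375 CPM). Without FT 72 h replicate 1, where the monocyte markers were also highest, the log2 change was -2.48 (adjusted p = 0.0228). *Thbs1*, encoding the matrix protein thrombospondin 1, had 272, 62.5 and 74.3 CPM at 72 h and 23.1, 31.2 and 31 CPM at 1 week (log2 change -1.92, and -1.26 without that library). The groups did not overlap for either gene. The part of monocytes in these decreases was not tested.

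Of the 9 anti-inflammatory genes that the study listed from these samples, 4 fell and 0 rose (median -1.12). Besides *Arg1* these were *Spp1*, *Alox15* and *Il1rn*. *Spp1*, encoding the secreted protein osteopontin, had 5188, 4714 and 3854 CPM at 72 h and 1459, 2036 and 2894 CPM at 1 week (log2 change -1.15, adjusted p = 0.00707), with 94.0 ± 14.1 CPM in NI. *Igf1*, a growth factor of the same list, had 118 ± 37.9 and 195 ± 51.0 CPM with overlapping groups (0.73, adjusted p = 0.106). Among all genes 0.827% rose and 2.62% fell. Of the 12 pro-inflammatory genes listed by the study, 1 rose (*Cxcl9*) and 2 fell. These were *Ifitm1* and *Ifitm2*, which encode membrane proteins that restrict viral entry. *Ifitm2* went from 189, 157 and 106 CPM to 57.2, 52.5 and 79.5 CPM (log2 change -1.23, adjusted p = 0.000764). *Ifitm3*, from the same cluster, had 319 ± 107 and 293 ± 64.4 CPM. Since both lists were drawn up by the study from these same libraries, they are not independent evidence of a direction. Without FT 1 week replicate 1, *Spp1* was at -0.91, *Alox15* at -0.90 and *Il1rn* at -1.16 (adjusted p = 0.0755), and none of the 3 passed. *Il1rn* did not pass without any 1 of the 6 samples (adjusted p = 0.0617 to 0.192), nor *Alox15* without any 1 of the 3 at 72 h (adjusted p = 0.0505 to 0.117). *Ifitm1* was lost without FT 72 h replicate 1 (-1.53, adjusted p = 0.0668) or FT 1 week replicate 2 (-2.05, adjusted p = 0.0606).

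Proteins that bind calcium and membranes, and matrix genes, included further decreases. Of 16 annexin and S100 genes 5 fell and 0 rose (median -0.82), where 2.62% of all genes fell. *Anxa2* went from 277, 176 and 174 CPM to 58.6, 74.8 and 93.8 CPM (log2 change -1.45, adjusted p = 0.000102), and *S100a6* from 49.4, 24.5 and 19.9 CPM to 6.67, 5.73 and 7.41 CPM (log2 change -2.06, adjusted p = 0.000866). *S100a4*, *S100a10* and *S100a11* had log2 changes of -1.93, -1.79 and -1.34, the last lost without FT 72 h replicate 1 (-0.89) or FT 1 week replicate 2 (-1.06, adjusted p = 0.0697). *Lgals1*, which encodes galectin 1, was the only 1 of 6 galectins to fall. It had 248, 313 and 174 CPM at 72 h and 72.3, 36.4 and 66.2 CPM at 1 week (log2 change -2.08, standard error 0.26, adjusted p = 1.06e-05). Of 29 matrix genes 4 fell and 0 rose, namely *Fn1*, *Spp1*, *Thbs1* and *Timp1*, an inhibitor of metalloproteases that went from 8.33 ± 3.95 to 1.39 ± 0.729 CPM. *Fn1* and *Spp1* were also counted in lists above, so that these counts are not separate results. *Fn1* was at -0.94 without FT 72 h replicate 1 (adjusted p = 0.0794).

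**Figure D3:**
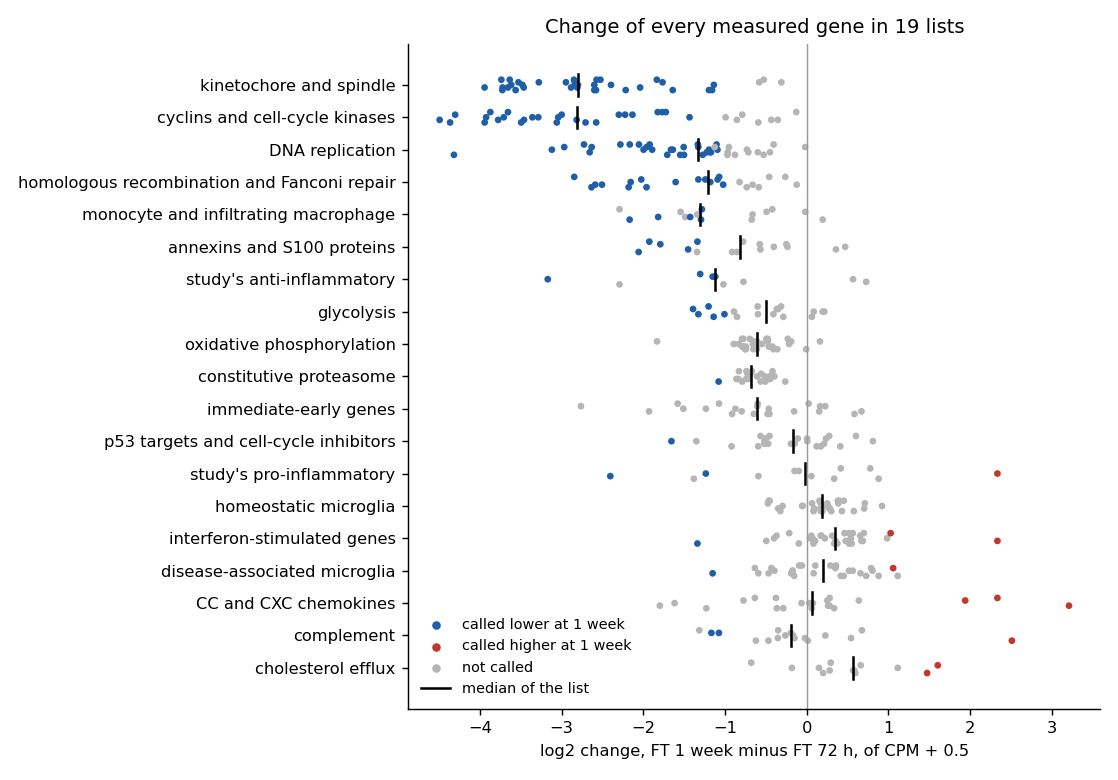
Change from FT 72 h to FT 1 week (horizontal axis, log2 of CPM + 0.5) of every measured gene in 19 lists; each point is a gene, coloured by its call, and the black bar is the median of the list. By median, the cyclin (-2.82) and kinetochore (-2.80) lists lie furthest to the left. DNA replication (-1.33), the monocyte markers (-1.31) and homologous recombination (-1.21) follow. Points for genes that rose appear in the lists at the bottom.

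Among metabolic genes, calls were found for glycolysis. Of 18 glycolysis genes 5 fell and 0 rose (median -0.50), where 2.62% of all genes fell. *Ldha*, encoding lactate dehydrogenase A, had 782, 744 and 741 CPM at 72 h and 269, 379.5 and 394 CPM at 1 week (log2 change -1.14, adjusted p = 0.000411), and *Pkm*, encoding pyruvate kinase, went from 1992 ± 415 to 886 ± 272 CPM (log2 change -1.20). *Pgk1*, *Pfkp* and *Eno1* were the other 3, and reads of *Eno1* may be shared with a near-identical copy. *Hk2* and the glucose transporter gene *Slc2a1* had 0.22 and 0.06. Without FT 1 week replicate 1, which had the lowest *Ldha*, *Pkm* and *Pgk1*, 0 of the 18 passed, and *Ldha* was at -0.96 with an adjusted p of 0.00153. Without FT 72 h replicate 1, *Pgk1* (-0.93), *Pfkp* (-0.91) and *Eno1* (-0.95) did not pass, and *Eno1* was lost without FT 72 h replicate 3 as well (adjusted p = 0.0773). Of 31 genes of oxidative phosphorylation 0 passed, although 30 had negative values (median -0.61). Of 22 proteasome genes 1 fell, *Psma1* (-1.08), which is near the share of all genes that fell. All 22 were negative (median -0.68). *Psma1* was at -0.78 without FT 1 week replicate 1 and at -0.93 without FT 72 h replicate 2. With every column scaled to 1 total, the median of all genes was 0.14 in place of 0.03.

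The identity genes of microglia did not change by this test. Among 31 homeostatic genes 0 passed, with a median of 0.19. *P2ry12*, the purine receptor that steers microglial processes, had 1631, 2882 and 2371 CPM at 72 h and 1182, 3668 and 3843 CPM at 1 week. Replicate 1 lay below and the others above the whole range at 72 h, so that the interval of the log2 change was wide (0.19, 95% interval -0.52 to 0.91), and without that replicate the value was 0.75 (adjusted p = 0.0945). *Tmem119* had 566 ± 52.2 and 695 ± 149.6 CPM (0.28, 95% interval -0.17 to 0.73), and *Sall1*, encoding a transcription factor of microglia, 229 ± 18.4 and 310 ± 43.7 CPM with groups that did not overlap (0.43, adjusted p = 0.11). All 3 were below the NI means of 4223, 1239 and 376 CPM at both times.

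Of 28 genes of the disease-associated state, 1 rose and 1 fell (median 0.20), where 0.827% of all genes rose and 2.62% fell. *Itgax*, encoding the integrin CD11c, went from 35.3, 21.9 and 18 CPM to 47.3, 52.1 and 52.9 CPM (log2 change 1.06, adjusted p = 0.0254), and *Spp1* fell. *Itgax* did not pass without 1 of 4 samples in turn (adjusted p = 0.0568 to 0.114). *Gpnmb*, *Lpl*, *Cst7* and *Clec7a* had log2 values from 0.36 to 0.81 and did not pass. Without FT 72 h replicate 1 *Gpnmb* was at 1.31 (adjusted p = 0.00121). Among 32 interferon-stimulated genes, 2 rose and 1 fell (median 0.35), against the same shares of all genes. *Mx1*, encoding an antiviral GTPase, went from 31.3, 29.2 and 34.2 CPM to 41.1, 78.8 and 83.8 CPM (log2 change 1.03, adjusted p = 0.027), and *Ifi27l2a* from 304, 663 and 533 CPM to 253, 133 and 197 CPM (log2 change -1.34, adjusted p = 0.00176). *Mx1* did not pass without any 1 of the 5 samples other than FT 1 week replicate 1. Without that replicate 6 of the 32 rose, with *Ifit2* at 1.39, *Ifit3* at 1.46, *Usp18* at 1.09 and *Oasl2* at 1.10. *Nlrc5*, the activator of MHC class I genes, rose from 17.7 ± 2.71 to 38.9 ± 8.80 CPM (log2 change 1.10, adjusted p = 0.00129) as the only 1 of 17 genes of that pathway, and was at 0.93 without FT 1 week replicate 2 and at 0.99 without FT 72 h replicate 2. Of 14 MHC class II genes 0 passed, and *H2-Ab1* ranged from 46.4 to 493 CPM at 72 h. Its log2 value was -0.76, 0.07 without FT 72 h replicate 1 and -1.63 (adjusted p = 0.0473) without FT 72 h replicate 2.

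*Gfap*, the intermediate filament gene of astrocytes, fell with *Vim*, which encodes the filament protein vimentin and was named after its values were seen. *Gfap* had 254, 354 and 356 CPM at 72 h and 71.4, 119 and 140.2 CPM at 1 week, where 45.2 ± 14.6 CPM were measured in NI (log2 change -1.58, standard error 0.33, adjusted p = 0.00498). *Vim* had 311, 115 and 147 CPM at 72 h and 73.2, 43.1 and 48.7 CPM at 1 week (log2 change -1.69, standard error 0.28, adjusted p = 0.000448). Both genes were separate in all samples, and *Vim* was at -1.27 without FT 72 h replicate 1. Of 12 astrocyte markers, 2 fell (*Gfap* and *Aldh1l1*, -1.47) and 1 rose, where 2.62% of all genes fell and 0.827% rose. The gene that rose, *Slc1a3*, encodes a glutamate transporter and went from 61.7, 89.4 and 78.4 CPM to 121, 179 and 184 CPM (log2 change 1.06, adjusted p = 0.000762), falling under the 2-fold limit without FT 72 h replicate 1 (0.91), FT 1 week replicate 2 (0.97) or FT 1 week replicate 3 (0.95). The median of the 12 markers was -0.67, 9 had a negative value, and 7 had all samples at 1 week below those at 72 h, against 10.4% of all genes. Their summed level was 923 to 1271 CPM at 72 h, 954 to 1111 CPM at 1 week and 1210.3 to 1585 CPM in NI, with no marker at 0, and the part of astrocyte RNA in these values was not tested.

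Endothelial markers had mostly lower values at 1 week, with 1 call, where 2.62% of all genes fell. Of 10 markers 9 had a negative value (median -0.93), and 4 had all samples at 1 week below those at 72 h, against 10.4% of all genes. Their summed level was 69.5 to 101 CPM at 72 h and 34.7 to 74.5 CPM at 1 week, and their part in other results was not tested. *Vwf* was the only 1 to pass (-1.24, adjusted p = 0.018, lost without FT 72 h replicate 1, FT 72 h replicate 3 or FT 1 week replicate 2, with adjusted p = 0.0675 to 0.105). *Cbr2* fell among 10 markers of border macrophages (from 35.4, 43.5 and 40.3 CPM to 10.9, 8.43 and 11.2 CPM, log2 change -1.92), and *Mrc1* of the same list had 0.04. Of 11 neutrophil, 12 T and NK, 5 B lymphocyte, 12 neuronal and 12 oligodendrocyte markers 0 passed. The oligodendrocyte markers still summed to 1199 to 1620 CPM at 72 h and 1154 to 1985 CPM at 1 week. The source of that RNA was not tested. Each of the other lists in this count summed to at most 89.9 CPM in any of the 6 samples.

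The immediate-early genes, transcription factors and phosphatases that respond within minutes to stimulation, differed more within FT 1 week than between the times. *Fosb* had 148, 148 and 186 CPM at 72 h and 343, 21.1 and 9.46 CPM at 1 week. *Egr1* had 282, 431 and 418 CPM at 72 h and 772, 135 and 92.4 CPM at 1 week. *Dusp1*, encoding a phosphatase of MAP kinases, had 128, 179.6 and 145 CPM and then 364, 54.2 and 43.4 CPM. For all 3 genes replicate 1 lay above and the other 2 samples below all samples at 72 h. Replicate 1 was at least 2-fold above both of the others for 19 of the 22 genes, against 12.6% of all genes, and the other 2 lay below every 72 h sample for 17 of the 22, against 17.3% of all genes. The summed level of the 22 genes was 5174 to 5992 CPM at 72 h and 7723, 2948 and 2426 CPM at 1 week, against 8009 to 13158 CPM in NI. At 1 week after HS it was 11267 and 10996 CPM. Replicate 1 was thus the FT 1 week sample nearest to NI and to HS 1 week. At 2 weeks after FT the sum was 1981, 12177 and 12460 CPM.

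With all samples in the fit, 0 of the 22 genes passed (median -0.60). After HS, 0 passed over the same interval too, but the median was 1.07, of the opposite sign. For the difference between the injuries, 6 of the 22 had an unadjusted p under 0.05 (limma), against 3.93% of all genes. Other lists exceeded that share too, among them 21 genes of cytokines and NF-kB feedback (6), 17 heat-shock genes (5) and oxidative phosphorylation (6 of 31). The sum of those 21 cytokine and feedback genes at FT 1 week was also highest in replicate 1 (2210 CPM against 1039 and 842 CPM). None passed the adjustment. Without FT 1 week replicate 1, 5 fell and 0 rose (2.55% of all genes fell and 0.952% rose in that fit), and the median was -1.15. The genes that fell were *Fosb* (-3.45, adjusted p = 0.0455), *Ier2* (-2.15), *Atf3* (-2.25), *Nr4a1* (-3.78, adjusted p = 0.0153) and *Nr4a2* (-2.16). The 17 heat-shock genes shared this order of the samples only in part. Replicate 1 was above both of the others for 10 of them. It was at least 2-fold above for 4, against 12.6% of all genes. The other 2 lay below every 72 h sample for 8 of the 17, against 17.3% of all genes. Among the 4, *Hspa1a* had 36.3, 34.2 and 25.5 CPM at 72 h and 123, 16 and 17.1 CPM at 1 week. After HS, 3 of the 17 rose and 0 fell (median 0.65), where 1.95% of all genes rose. The sum of the 17 was lowest in replicate 1 (4233 CPM against 6363 and 6556 CPM), and 0 passed (median -0.31). What made replicate 1 differ was not tested. *Top2a* and *Ccnb1* did not follow it.

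**Figure D4:**
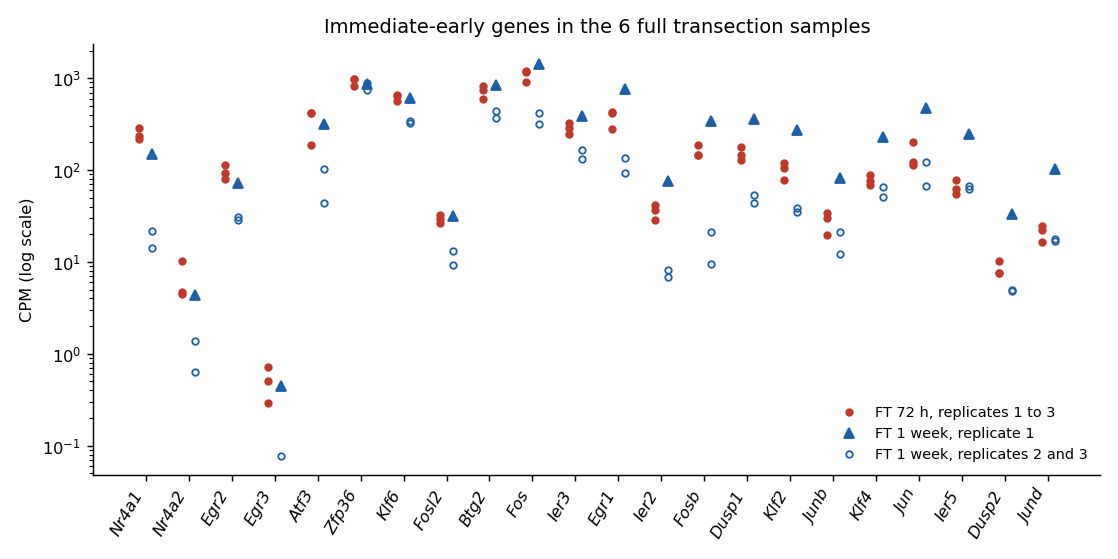
Levels of the 22 immediate-early genes in CPM (log axis) in the 6 FT samples, ordered by the ratio of FT 1 week replicate 1 to the mean at 72 h; red points are FT 72 h, the triangle is FT 1 week replicate 1 and open circles are its other replicates. The triangle is at least 2-fold above both open circles for 19 genes.

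The same interval was sampled after HS in other mice, with 3 samples at 72 h and 2 at 1 week. There, 1013 genes changed (6.03%), 685 of them lower at 1 week (4.07%). Of the 440 genes that fell after FT, 431 had a negative value after HS, where 44.9% of all genes did, and 328 were called. Of the 139 that rose, 137 had a positive value after HS, against 55.1% of all genes, and 49 were called, against 1.95% of all genes. *Top2a* went from 209 to 9.84 CPM after HS, a log2 change of -4.34, and *Cxcl13* from 0.960 to 15 CPM, a log2 change of 3.48. Changes after both injuries lay on the same side of 0 for all 15 of the largest falls and all 15 of the largest rises.

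**Figure D5:**
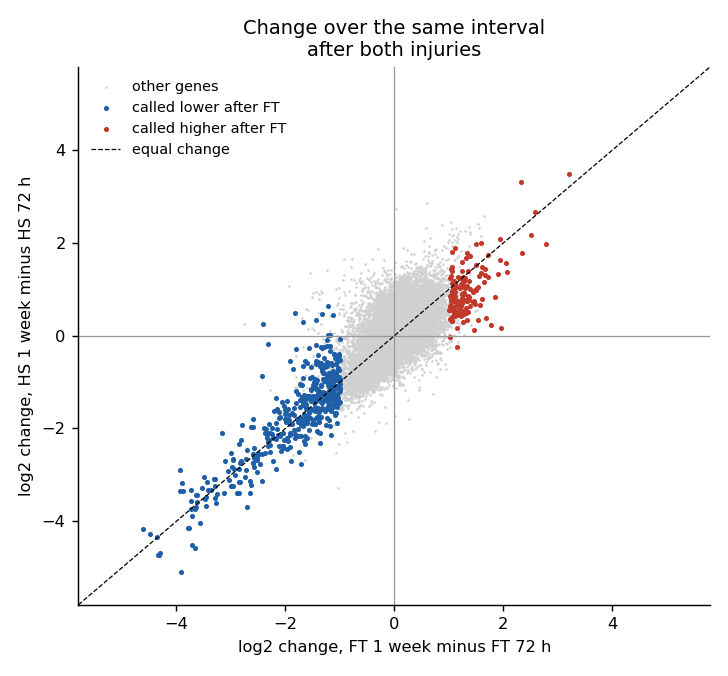
Log2 change from 72 h to 1 week after FT (horizontal) and after HS (vertical) for all 16810 genes; blue genes were called lower and red genes higher after FT, and the dashed line marks equal change. Of the blue genes 431 of 440 lie below 0 on the vertical axis, and of the red genes 137 of 139 lie above it.

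The difference between the changes after FT and HS was tested directly by an interaction term in the same fit, and 0 genes passed (limma, smallest adjusted p = 0.996). An unadjusted p under 0.05 was found for 661 genes, 3.93% of all, and edgeR and DESeq2 also called 0. Without FT 1 week replicate 1 the number with an unadjusted p under 0.05 was 2196, and still 0 passed (smallest adjusted p = 0.302). The smallest unadjusted p belonged to *Selp*, encoding the adhesion molecule P-selectin (2.25, 2.04 and 1.69 CPM at 72 h and 0.445, 0.232 and 0.631 CPM at 1 week after FT; 0.492 and 0.761 CPM on average after HS), followed by *Alkbh3*, *Plac8*, *Ankrd66* and *Tnfsf14*. *Plac8*, of the monocyte marker list, had 6.83 ± 2.95 and 2.10 ± 1.27 CPM after FT (SD, n = 3 each), and 2.45 and 6.49 CPM on average after HS. Of the genes described in the earlier paragraphs, *Erdr1* (log2 change 1.96 after FT and 0.17 after HS), *Cenpf* (-2.80 and -1.92), *Ifitm1* (-2.40 and 0.25), *Il1rn* (-1.12 and 0.44) and *Ly6c2* (-1.82 and 0.48) had the smallest unadjusted p-values for the difference, and none passed the adjustment.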

How the data were processed

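The values deposited by the authors are one signal per gene and sample, read counts normalized to effective library size (CPM), so that column totals ran from 878070 at FT 1 week replicate 1 to 1131230 at FT 72 h replicate 2 among the 6 samples. Per the submitters' processing notes the tools were TopHat2 2.0.9, HTSeq 0.5.4p3 and edgeR 3.3.6, with mm10/GRCm38. Strandedness was not given in the sources used here, so overlapping and antisense genes are uncertain. All 336200 values were whole multiples of 1 read per sample (100% within 0.001 of a step), and reads were recovered from them. No column was left unused.

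Groups followed the labels. limma 3.58.1 (R 4.3.3) was fitted with an intensity trend to log2(CPM + 0.5) for all 20 samples with 7 group means; fold changes are on that scale, which understates low genes. A gene was called at an adjusted p under 0.05 and at least 2-fold. On recovered reads, edgeR 4.0.16 called 611 genes (quasi-likelihood) or 733 (likelihood ratio) and DESeq2 1.42.0 called 655. The steps were tested on simulated data. Genes at 3 or fewer reads in every sample of a group got no fold, a floor that covers counting error only.

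Named genes were the 15 largest rises and falls (called, non-overlapping, at least 10 CPM in 1 group), the 10 smallest p, up to 6 called and the first 3 members of each list, further list members where the account needed them, and the 5 smallest p for the FT and HS difference. The members and lists were chosen with earlier results of these data known. Promoters came from RefSeq. Alternatives changed the added CPM, filter, scaling, samples, test, fold limit and replicate block, and left out each sample. Counts of list members under left-out samples, other tests and the block were added after seeing the data. Values of some genes are not reported here.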

Additional observations from a re-analysis of the deposited data

How the results depend on the processing

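All 579 genes kept their direction in every alternative in which they were fitted. The number of genes called was 361 with only the 6 FT samples in the fit, of which 52 were higher at 1 week, and 888 without a fold limit, of which 231 were higher. Leaving out 1 sample in turn gave 483 to 661 genes, with 75 to 160 higher and 356 to 503 lower; 75 was the number without FT 72 h replicate 2, the shallowest library. The cause was not tested. The difference between FT and HS had 0 genes in every alternative. With every column scaled to 1 total, 519 genes were called and the median of all genes moved to 0.14.

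Replicate numbers did not pair the samples (correlations of deviations for the same number were -0.0469, -0.264 and -0.155), and a fit with the replicate block called 573 genes, 134 higher and 439 lower.

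With 3 samples a group and FT 72 h replicate 2 at 3872918 reads, genes of low level are the least certain. Pooled mice hide variation between animals, and HS 1 week had 2 samples.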

Other observations

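Among the genes that rose and lie outside the accounts above, picked after their values were seen, were genes of adhesion and of lipid and receptor function. *Vcam1*, encoding an adhesion molecule for leukocytes, had 17.7, 12.3 and 13.4 CPM at 72 h and 25.3, 44.6 and 48.5 CPM at 1 week (log2 change 1.38, adjusted p = 0.0183, limma). *Cyp27a1*, encoding the sterol 27-hydroxylase that oxidizes cholesterol, went from 24.7 ± 8.94 to 56.5 ± 4.02 CPM (log2 change 1.25), and *Tlr12*, encoding a Toll-like receptor, from 7.74 ± 2.69 to 20.1 ± 2.13 CPM (log2 change 1.37; SD, n = 3 each). The samples of both times did not overlap for these genes. *Vcam1* did not pass without any 1 of 4 samples, namely replicates 2 and 3 of either time (adjusted p = 0.0572 to 0.0736), and *Cyp27a1* was at 0.91 without FT 72 h replicate 2.

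Some lists had 1 gene past the test, which is near the share of all genes that fell (2.62%) or rose (0.827%), and most of these calls were lost without 1 sample. *Atp6v0d2*, encoding a proton pump subunit, rose among 32 lysosomal genes (log2 change 1.20), whereas *Idi1* fell among 19 genes of cholesterol synthesis and uptake (-1.19), *Tgfbi* among 21 of the TGF-beta pathway (-1.58), *Plin3* among 20 of scavenger receptors and lipid droplets (-1.01) and *Pdia6* among 21 of folding in the endoplasmic reticulum (-1.14). *Txn1*, *Gpx1* and *Gpx7* fell among 25 genes of oxidases and antioxidant enzymes. Without FT 1 week replicate 1, *Tgfbi* was at -1.23 (adjusted p = 0.0553), *Idi1* at -0.94 and *Pdia6* at -0.63. *Atp6v0d2* did not pass without FT 1 week replicate 3 or any 1 sample at 72 h (adjusted p = 0.0523 to 0.0748). Without FT 72 h replicate 1, *Tgfbi* was at -0.96, *Plin3* at -0.92 and *Gpx1* at -0.97, without FT 72 h replicate 2 *Txn1* was at -0.90 and *Pdia6* at -1.08 (adjusted p = 0.0602), and without FT 1 week replicate 2 *Txn1* was at -0.87, *Gpx1* at -0.76 and *Plin3* at -0.99. Of 34 cytosolic ribosomal protein genes and 21 of ribosome biogenesis and Myc, 0 passed, with medians of -0.10 and -0.07.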
